A study of Mus musculus with 8 samples.

Results

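Lineage transcription factor genes encode the DNA-binding proteins that drive cells toward particular fates, such as neural, endodermal, blood, muscle or bone cells. The set examined holds 59 named mouse genes of the SOX, FOX, GATA, TBX, PAX, RUNX, nuclear factor I and nuclear receptor families and of several smaller families, out of 21774 protein-coding genes on placed chromosomes of the mm10 build. They were chosen by name, with earlier results of these data known, and all 59 symbols were found. A region was assigned to a gene when its midpoint lay in the RefSeq span of the gene or within 20 kb of either end, which is called the gene's window here. These windows held 75 of the 12594 deposited regions, or 0.596%, and no region fell in the windows of more than 1 member.

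The study profiled 5-hydroxymethylcytosine by CMS-IP, in which bisulfite turns this base into cytosine 5-methylenesulphonate and an antibody recovers the DNA fragments that carry it. All cells were mouse embryonic stem cells of the genotype Ogt fl/fl, grown with LIF on feeder cells. Ogt encodes O-GlcNAc transferase, a partner of the TET enzymes. The Ogt iKO group was kept in 4-hydroxytamoxifen (4-OHT) for 6 days, and the control group grew without it. Each group gave 2 CMS-IP libraries and 2 input libraries, 8 in all. Viable cells were sorted to remove the feeders, and only the treated cells were also selected for YFP, so loss of Ogt, 4-OHT and the YFP gate cannot be told apart. The labels assign CD90.2 to the stem cells and CD326 to the feeders, although CD326 (EpCAM) is usually a stem cell marker and CD90 (Thy1) a fibroblast marker, so the gate actually used is uncertain. They name neither the Cre driver nor separate cultures behind the replicates. Because the deposited lists hold positions and no levels, the identity of the cells was not checked against markers, and read depth, size of change and spread between replicates are unknown. Counts below describe the lists, and intervals cover counting error only.

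TET enzymes oxidise 5-methylcytosine to 5-hydroxymethylcytosine, which in embryonic stem cells is found mainly in gene bodies and at distal regulatory elements. Many lineage factors, such as the GATA and T-box factors, are largely silent in these cells, whereas several of the forkhead genes listed here are broadly expressed. A higher region is one with more CMS-IP signal in Ogt iKO than in control cells, and a lower region is one with less.

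A lower region covered an annotated transcription start in 1 of the 42 members that have an entry in the RefSeq promoter table of GRCm38.p6. That share of 2.38% compares with 49 of 17450 other protein-coding genes (0.281%) for a region of either direction, and with 0.147% of the 8861 others with a CpG-rich promoter, but it rests on 1 region. The gene was Pax6, a master regulator of eye and forebrain development. The region, 528 bp at chr2:105682301-105682828, lay around the internal start at 105682463 and shared 212 bases with the 300-base promoter, which runs from 250 bases before to 50 bases after the start. The shared part held 7 of the promoter's 16 CpG dinucleotides. Both Pax6 promoters are printed because the region covered the internal one and not the first, and those of Rora and Sox1 because Rora had the next closest region and Sox1 had none in its window. All 4 are on the plus strand, 5′ to 3′, and CpG dinucleotides are in capitals.
Pax6 first start, chr2:105668646-105668945: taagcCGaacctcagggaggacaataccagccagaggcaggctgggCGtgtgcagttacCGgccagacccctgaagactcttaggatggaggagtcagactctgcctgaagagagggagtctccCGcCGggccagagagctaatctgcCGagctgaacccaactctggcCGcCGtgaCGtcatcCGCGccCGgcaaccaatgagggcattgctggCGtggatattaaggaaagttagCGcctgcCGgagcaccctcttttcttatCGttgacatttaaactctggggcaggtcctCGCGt
Pax6 internal start, chr2:105682213-105682512: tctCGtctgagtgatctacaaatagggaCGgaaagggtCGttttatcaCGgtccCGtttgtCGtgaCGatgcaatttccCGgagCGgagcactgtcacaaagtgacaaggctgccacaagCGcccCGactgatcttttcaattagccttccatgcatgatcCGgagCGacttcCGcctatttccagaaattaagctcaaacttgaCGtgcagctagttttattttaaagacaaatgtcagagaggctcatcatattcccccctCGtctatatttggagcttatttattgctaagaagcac
Rora, chr9:68653536-68653835: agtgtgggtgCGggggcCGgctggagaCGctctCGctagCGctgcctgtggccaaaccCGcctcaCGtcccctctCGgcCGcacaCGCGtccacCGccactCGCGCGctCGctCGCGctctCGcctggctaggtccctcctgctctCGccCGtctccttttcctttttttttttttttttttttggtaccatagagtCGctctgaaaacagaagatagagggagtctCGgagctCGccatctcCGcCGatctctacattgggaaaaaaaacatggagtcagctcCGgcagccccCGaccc
Sox1, chr8:12395269-12395568: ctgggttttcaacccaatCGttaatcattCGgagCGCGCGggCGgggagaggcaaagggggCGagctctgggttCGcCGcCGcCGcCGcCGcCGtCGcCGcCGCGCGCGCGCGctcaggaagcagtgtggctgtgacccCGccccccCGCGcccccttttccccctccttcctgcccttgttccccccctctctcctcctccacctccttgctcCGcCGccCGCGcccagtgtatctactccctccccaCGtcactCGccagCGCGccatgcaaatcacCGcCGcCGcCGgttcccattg

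The internal Pax6 promoter held 16 CpGs at 46.3% GC, and the first held 18 at 58.7% GC. The ratio of observed to expected CpGs was 0.998 and 0.698, respectively. The CCAAT box, searched as CCAAT on both strands, was in the first Pax6 promoter and not in the internal one, and it was in 38.2% of all 21263 protein-coding promoters of the table. The TATA motif TATAAA was in neither, and it was in 12.6% of all promoters. The SOX-type motif ACAAAG was in the internal promoter and not in the first, against 16.8% of all promoters. In Rora, which encodes a nuclear receptor needed in cerebellar Purkinje cells, a lower region began 3221 bp after the start. The promoter of Sox1, a neural progenitor factor, held 37 CpGs, and the nearest region lay 55440 bp from its start.

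Members had CpG-rich promoters more often than other genes. At least 1 promoter with a CpG ratio of 0.6 or more was listed for 35 of 42 members (83.3%) and for 50.8% of 17450 other protein-coding genes. A gene with several listed starts counted by its highest CpG ratio and its nearest region. The 42 members had 70 listed promoters, out of 21263 for all protein-coding genes. The number of starts per gene was not matched here or in the share with a covered start above. A region lay within 1 kb of a listed start in 1 member, or 2.38%, against 1.78% of the other genes and 1.99% of the 8861 others with such a promoter. Within 5 kb the values were 2 members (4.76%), 7.38% and 9.45%. Within 20 kb they were 10 members (23.8%), 22.9% and 27.6%. The table has no entry for Sox3, Sox7, Sox9, Sox10, Sox17, Foxp2, Foxk1, Gata4, Gata6, Tbx2, Tbx5, Pax3, Nfib, Pbx3, Tcf4, Zeb1 and Tead1, and positions relative to a start were not computed for them.

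Of the 59 members, 30 held at least 1 region (50.8%, 95% Wilson interval 38.4 to 63.2%), against 36.2% of all protein-coding genes. Members are long genes, with a median span of 89.5 kb against 17.2 kb, and the share of genes with a region rises with length. When the other protein-coding genes were weighted to the members' 8 length classes, 54.2% held a region, which corresponds to 32.0 of 59 genes and lies inside that interval. A higher region was held by 23 members (39.0%), against 26.4% of all protein-coding genes and 43.9% after weighting for length. A lower region was held by 18 members (30.5%), against 16.1% and 27.1%. Both weighted values lie inside the Wilson intervals of the members' shares, 27.6 to 51.7% and 20.3 to 43.1%.

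The 30 members with regions fell into 3 kinds. Higher regions alone were found in 12 members (20.3%, against 20% of all protein-coding genes and 27.0% weighted for length): Foxo1, Foxp2, Foxj3, Pax2, Pax3, Nfic, Meis2, Prdm16, Ebf3, Tcf4, Tcf12 and Tshz2. Lower regions alone were found in 7 members (11.9%, against 9.79% and 10.3%): Sox7, Foxp4, Eomes, Pax6, Nfix, Meis1 and Ebf1. Both directions were found in 11 members (18.6%, against 6.35% and 16.9%): Foxn3, Foxp1, Pax5, Runx1, Runx2, Nfia, Nfib, Esrrg, Rarb, Rora and Tead1. The remaining 29 members held none.

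**Figure D1:**
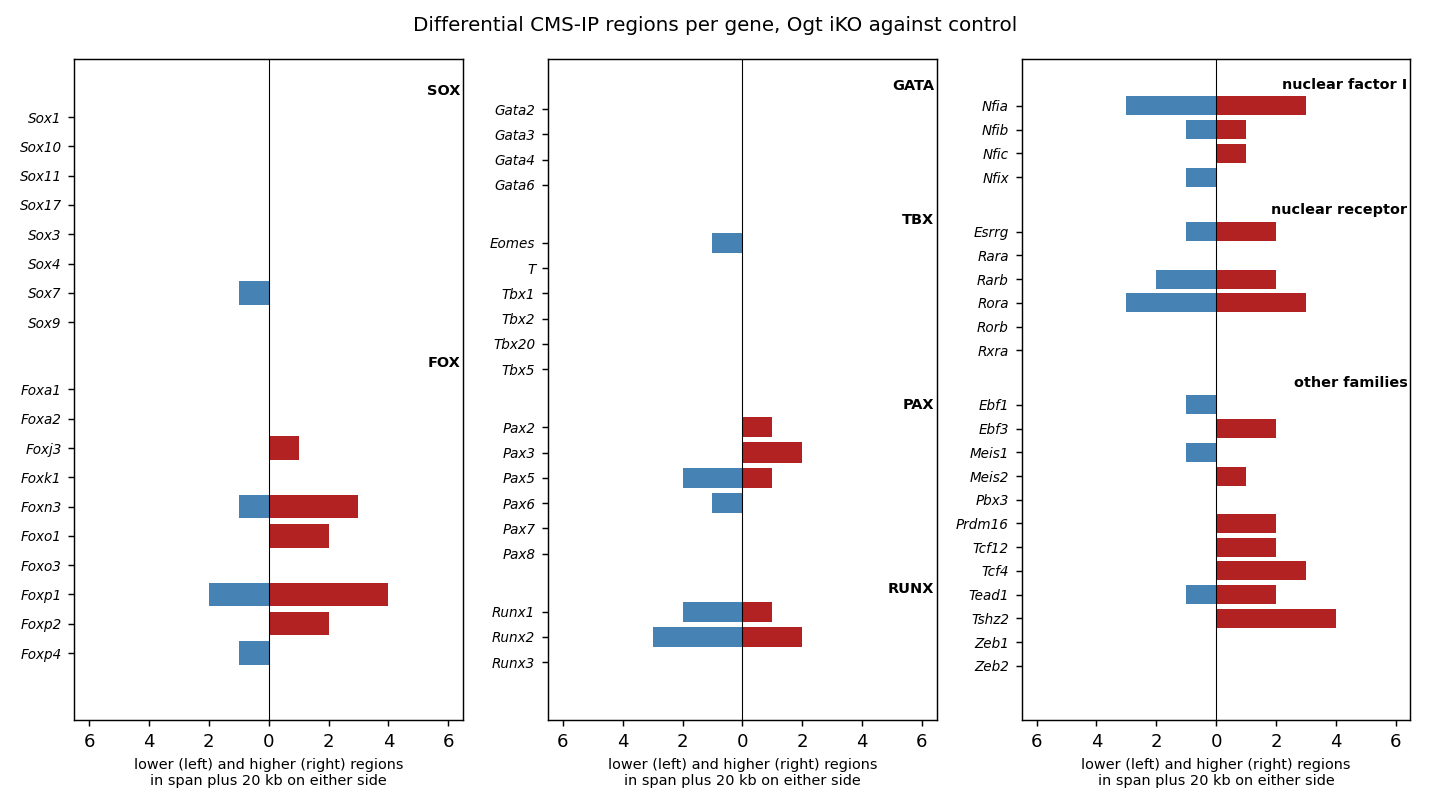
Number of lower regions (bars to the left) and higher regions (bars to the right) in the span of each of the 59 genes plus 20 kb on either side, grouped by family. Foxp1 and Tshz2 reach 4 higher regions, Runx2, Nfia and Rora reach 3 lower regions, and no bar is drawn for the 29 genes without a region.

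The 75 regions were 47 higher and 28 lower, so that 62.7% were higher (95% Wilson interval 51.4 to 72.7%). In the windows of other protein-coding genes 68.2% of 8921 regions were higher, and the share after weighting for length was 70.8%. Both values lie inside that interval, the second nearer its upper limit. Other genes of the members' lengths would give 52.0 higher and 21.4 lower regions in the same number of windows. The members' counts were 0.905 times this number for higher regions (95% Poisson interval 0.665 to 1.20) and 1.31 times for lower regions (0.869 to 1.89). Both intervals include a ratio of 1, so with this number of regions no difference from other genes was detectable in either direction. The mean was 1.27 regions per member, against 1.24 after weighting for length.

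Among members, the number of regions rose with gene length. Of the 18 members of 200 kb or more, 17 held a region (94.4%, against 78.0% of 972 other genes of this length), and they held 57 of the 75 regions. The exception was Pbx3, a homeodomain partner of HOX proteins, with a span of 201 kb. Between 50 and 200 kb, 9 of 21 members held a region (42.9%), against 59.8% of other genes. Below 50 kb, 4 of 20 did, against 28.2% of other genes. These 3 length groups were formed after the values had been seen.

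**Figure D2:**
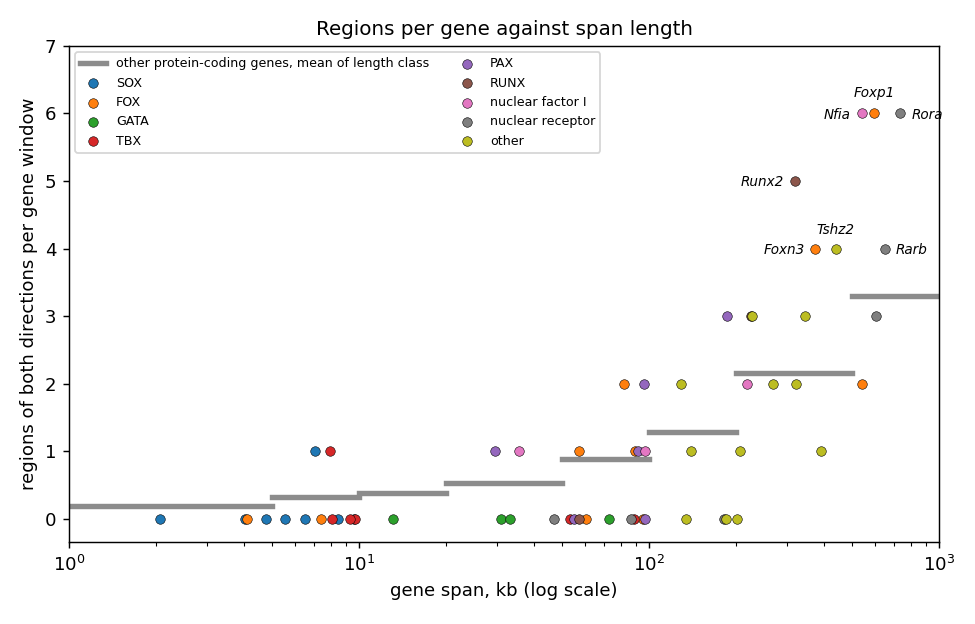
Regions of both directions per gene window (vertical axis) against gene span in kb (horizontal axis, log scale). Points are the 59 members coloured by family, and grey lines are the mean of other protein-coding genes in each of 8 length classes, the lowest and highest classes being open-ended. The 3 members with 6 regions, Nfia, Foxp1 and Rora, lie above the mean of 3.30 for genes of 500 kb or more.

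The SOX proteins bind DNA through an HMG box. Their 8 member genes are short, from 2.06 to 9.58 kb, and their windows held 1 region in all, against 2.14 for other genes of the same lengths. The 12 SOX genes outside the set, up to 954 kb long, held 19 higher and 4 lower regions, against 6.30 and 2.78. Sox5 held 15 of these higher regions, so the members do not stand for the whole family. The members' 1 region was lower, 201 bp wide at chr14:63959619-63959819, and lay 8.99 kb outside Sox7, a factor of endoderm and endothelium. The neural factors Sox1, Sox3, Sox4 and Sox11, the endoderm factor Sox17, the cartilage and testis factor Sox9 and the neural crest factor Sox10 held none. In the 5 to 10 kb class that includes Sox7, 73.7% of other genes held no region. Sox3 is the member on X, and the nearest region was 2118 kb away.

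The GATA zinc finger factors and the T-box factors held few regions, at numbers whose intervals include those of other genes. Gata2 and Gata3, of blood and trophoblast, and Gata4 and Gata6, of endoderm and heart, held 0 regions, against 2.30 for other genes of their lengths. The 6 T-box genes held 1, against 3.01. It was a lower region of 200 bp at chr9:118496727-118496926, which lay 10.7 kb past the end of Eomes, a factor of trophoblast, mesoderm and endoderm. T, the primitive streak factor Brachyury, Tbx1, Tbx2, Tbx5 and Tbx20 held none. Together the 18 SOX, GATA and TBX genes held 0 higher and 2 lower regions, against 4.83 and 2.62 after weighting for length; this grouping was made after the counts were seen. The 95% Poisson interval of the ratio for higher regions reached 2.82 for SOX, 2.42 for GATA, 1.85 for TBX and 0.764 for the 18 genes. With a 50 kb flank the SOX genes held 4 regions, of which 50.0% were higher, and the TBX genes 5, of which 20% were higher, so the absence of higher regions did not hold for them.

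The forkhead members held 16 regions in 6 of 10 genes, 12 of them higher (75%, 95% Wilson interval 50.5 to 89.8%), against 9.73 higher and 3.90 lower regions for other genes of their lengths. The 34 forkhead genes outside the set are shorter, with a median span of 3.89 kb against 85.6 kb. They held 5 higher and 6 lower regions, against 5.87 and 3.64, so the members' share does not stand for the family. Foxp1, a repressor active in lymphoid, heart and neural cells, had 4 higher and 2 lower regions, and 20.8% of other genes of 500 kb or more had as many in all. Its widest higher region was 1391 bp at chr6:99302096-99303486, and its wider lower region was 257 bp at chr6:99093083-99093339. Foxn3 had 3 higher regions of 2649, 1955 and 1662 bp and 1 lower region of 915 bp. The widest of them, at chr12:99289966-99292614, was also the widest among the forkhead members. Foxo1, a target of insulin and PI3K signalling, had 2 higher regions of 2564 and 882 bp, and its relative Foxo3 had none over a span of 94.9 kb.

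Foxp2, which is studied for its part in vocal learning, had 2 higher regions of 216 and 200 bp in a span of 541 kb, and 64.3% of other genes of 500 kb or more had as many. Foxj3 had 1 higher region of 315 bp, 12.4 kb before its start. Foxp4 had 1 lower region of 917 bp at chr17:47851083-47851999, 15.6 kb past its end, the widest lower region among the forkhead members. The endoderm pioneer factors Foxa1 and Foxa2 and the widely expressed Foxk1 held none.

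The PAX genes, which encode paired-box factors, held 4 higher and 3 lower regions, against 3.66 and 1.66. Pax5, the factor that fixes B cell identity, had 2 lower regions of 1230 and 826 bp and 1 higher region of 292 bp. The widest lower region among all members was the first of these, at chr4:44542358-44543587, and the higher one lay at chr4:44628607-44628898. As many lower regions were found in 6.85% of other genes of 100 to 200 kb, and as many regions in all in 16.5%. Pax6 had the lower region described above. Pax3, of muscle and neural crest, had 2 higher regions of 200 and 226 bp that lay 3.74 kb apart, the closest pair of neighbours in any member. Pax2, of kidney and the midbrain, had 1 higher region of 242 bp that lay 8.13 kb before its first start. Pax7 and Pax8 held none.

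RUNX factors are the DNA-binding partners of CBF-beta in blood and bone. Their 3 genes held 3 higher and 5 lower regions, and the other genes of their lengths would give 3.70 and 1.48. The share of higher regions was 37.5% (95% Wilson interval 13.7 to 69.4%), against 71.5% for other genes of those lengths. Runx2, the regulator of bone formation, had 3 lower regions of 497, 200 and 200 bp and 2 higher regions of 835 and 378 bp, with the widest at chr17:44540563-44541059 (lower) and chr17:44633976-44634810 (higher). As many lower regions were found in 2.66% of other genes of 200 to 500 kb, and as many regions in all in 10.7%. The 2.66% was the smallest such share among the 59 members in either direction. Being the smallest of many shares, it does not by itself set Runx2 apart from other genes. Runx1, the regulator of blood stem cell emergence, had lower regions at chr16:92581950-92582266 and chr16:92800077-92800328, of 317 and 252 bp. It had 1 higher region of 329 bp at chr16:92599465-92599793. The higher one lay 1.84 kb beyond the end of the gene. Runx3 held none.

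The nuclear factor I genes encode CTF/NF-I factors of glia, muscle and lung, and all 4 held a region. Among other genes of the length classes of Nfic, Nfix, Nfib and Nfia, 39.2, 55.6, 77.8 and 78.7% did. Their 10 regions were 5 higher and 5 lower, against 4.93 and 1.92. Nfia, which promotes glial fate, had 3 of each. Its higher regions were 3164, 1719 and 804 bp wide, its lower regions 441, 279 and 246 bp. The 3164 bp region at chr4:97782528-97785691 was the widest in any member window. The widest lower one lay at chr4:97608832-97609272, 6.86 kb from the next lower region. Nfib had 1 of each, of 389 and 368 bp. Nfic had 1 higher region of 200 bp, 15.1 kb past its end. Nfix had 1 lower region of 224 bp at chr8:84764190-84764413, inside the gene.

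The 6 nuclear receptor genes held 7 higher and 6 lower regions, against 9.14 and 3.45. These receptors are transcription factors switched by small lipophilic ligands or, in orphan members, without a known one. Rora had 3 of each. Its higher regions were 1221, 1055 and 392 bp wide, with the widest at chr9:69210428-69211648, and its lower regions were 493, 402 and 269 bp wide, with the widest at chr9:69243787-69244279. The latter ended 4.26 kb before a higher region, the closest neighbours of opposite direction in any member. Rarb, a retinoic acid receptor, had 2 higher regions of 2328 and 694 bp and 2 lower regions of 357 and 264 bp. The widest lay at chr14:16724203-16726530 and chr14:16451919-16452275. Esrrg had 2 higher regions, the wider of 675 bp at chr1:188199110-188199784, and 1 lower region of 200 bp at chr1:187831071-187831270. Rara, the general receptor partner Rxra and Rorb held none, and Rorb spans 181 kb.

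The 12 members outside these families held 16 higher and 3 lower regions, against 16.0 and 6.39. Their share of higher regions was 84.2% (95% Wilson interval 62.4 to 94.5%), against 71.4% for other genes of those lengths. Tshz2, a teashirt zinc finger gene, had 4 higher regions of 2557, 1113, 866 and 748 bp and no lower region, with the widest at chr2:170052488-170055044. As many higher regions were found in 12.0% of other genes of 200 to 500 kb, and as many regions in all in 21.3%. The E protein gene Tcf4 had 3 higher regions of 1821, 1726 and 479 bp, and Tcf12, also an E protein gene, had 2 of 1286 and 244 bp. Prdm16, of brown fat, had 2 of 1682 and 705 bp, and Ebf3 had 2 of 519 and 229 bp.

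Meis1 and Meis2, homeodomain cofactors of HOX proteins, held 1 region each. Meis1 had 1 lower region of 581 bp at chr11:18957806-18958386, and Meis2 had 1 higher region of 2103 bp. A higher region of 1034 bp lay 25.1 kb beyond Meis1, outside the 20 kb limit. Ebf1, an early B cell factor with a span of 390 kb, had 1 lower region of 272 bp at chr11:44708379-44708650, while its paralogue Ebf3 had higher regions only. Tead1, a DNA-binding partner of the Hippo pathway, had 2 higher regions of 891 and 200 bp and 1 lower region of 486 bp. Zeb1 and Zeb2, repressors that act in epithelial-mesenchymal transition, held none, although they span 184 and 134 kb; 32.8% of other genes of 100 to 200 kb held none.

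**Figure D3:**
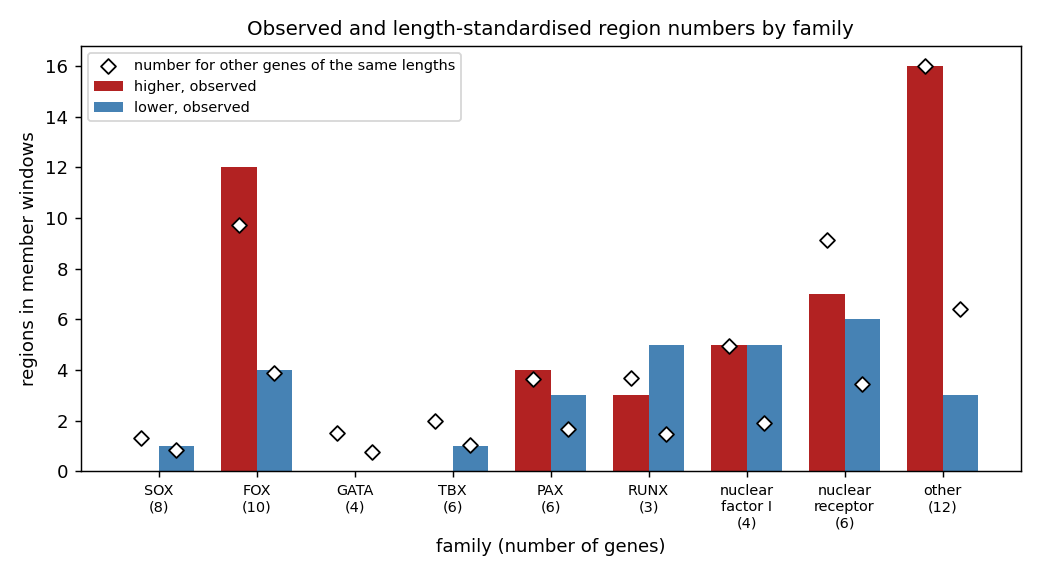
Higher (red) and lower (blue) regions in the windows of each family's members, with the number of genes in brackets. Diamonds mark the number that other protein-coding genes of the same length classes would give; lower regions exceed their diamond most in the RUNX, nuclear factor I and nuclear receptor genes and fall short of it most in the genes outside the named families.

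The 13 RUNX, nuclear factor I and nuclear receptor members held 15 higher and 16 lower regions, against 17.8 and 6.85 for other genes of their lengths. The ratio was 2.34 for lower regions (Poisson interval 1.34 to 3.80) and 0.845 for higher regions (0.473 to 1.39). Only the first interval excluded equality with other genes. Their higher share was 48.4% (Wilson interval 32.0 to 65.2%), short of the 72.2% of other genes. For RUNX alone the lower ratio was 3.39 (1.10 to 7.90). It was 2.60 (0.845 to 6.08) for nuclear factor I and 1.74 (0.638 to 3.79) for nuclear receptors. The 43 nuclear receptor genes outside the set showed no such excess. They held 22 higher and 10 lower regions, against 22.9 and 10.6, a lower ratio of 0.944 (0.453 to 1.74). The nuclear receptor members therefore do not stand for the whole family. The joint grouping was chosen after the family counts had been seen, which its intervals do not allow for. No test was made of it. The Wilson interval of the higher share was 23.7 to 76.3% for nuclear factor I and 29.1 to 76.8% for nuclear receptors, and it held the value of other genes of their lengths, 71.9% and 72.6%. For the RUNX genes it was 13.7 to 69.4%, just short of the 71.5% of other genes, on 8 regions in 2 genes. It held that value with a 50 kb flank, at 44.4% of 9 regions (18.9 to 73.3%), and without Runx2, at 33.3% of 3 regions (6.15 to 79.2%). With no flank it again fell short of it, at 33.3% of 6 regions (9.68 to 70.0%). The 71.5% is for 20 kb flanks and all 3 RUNX genes, and was not recomputed for these settings.

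Regions in the members' windows fell inside the span about as often as in other genes. Midpoints fell inside the span in 65 of 75 cases (86.7%, 95% Wilson interval 77.2 to 92.6%), against 83.8% for other genes weighted by length. None was within 1 kb of an end of the span, which allows a share of up to 4.00% by the limit of 3 counts, or 4.87% by the Wilson interval, and the 1.81% of other genes lies below both. Within 5 kb of an end there were 3 (4.00%, Wilson interval 1.37 to 11.1%), against 8.54% for other genes, a value inside the interval. Among members of 50 kb or more, gene bodies held 4.50 higher regions per Mb, and other genes of this length also held 4.50. Lower regions in gene bodies numbered 2.36 per Mb, against 1.77. In the 20 kb flanks these members held 2.56 higher and 1.92 lower regions per Mb, against 4.82 and 2.50, but the members' values rest on 4 and 3 regions.

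For the 24 members with a region and a strand in the promoter table, 54 of 62 regions were inside the span, 2 before it and 6 past it. With the span divided into 3 equal parts from the start, 14, 20 and 20 regions were found in them. Higher regions numbered 9, 10 and 13 and lower regions 5, 10 and 7. Of 45 pairs of neighbouring regions in the same member, 24 were of opposite and 21 of the same direction, with median gaps of 68.5 and 53.1 kb. Neither the split of the span nor the order of neighbours was computed for other genes. These counts therefore cannot show whether members differ from other genes.

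**Figure D4:**
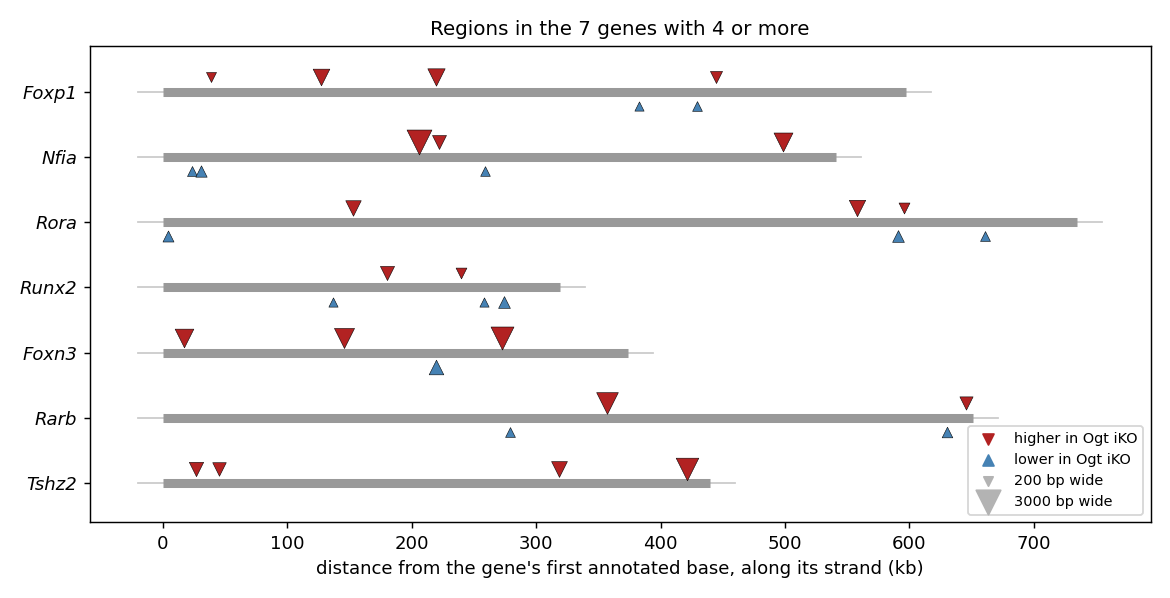
Positions of regions in the 7 genes with 4 or more, as distance in kb from the first annotated base along the gene's strand. Grey bars are gene spans with thin lines for the 20 kb flanks, red triangles are higher and blue triangles lower regions, and marker size grows with width; Tshz2 shows higher regions only, and the widest marker is the 3164 bp region of Nfia.

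Higher regions in the members' windows had a larger median width than lower ones. Their median width was 748 bp (interquartile range 304 to 1526 bp, 47 regions), against 571 bp (274 to 1028 bp) for 6081 higher regions in windows of other protein-coding genes. A width of at least 1000 bp was reached by 18 of the 47 (38.3%), against 25.9%. Lower regions had a median of 298 bp (240 to 494 bp, 28 regions), against 328 bp (224 to 646 bp) for 2840 others. Only 1 of the 28, in Pax5, reached 1000 bp (3.57%), against 11.7%. The 95% interval of the members' median was 392 to 1113 bp for higher and 252 to 486 bp for lower regions, and both intervals hold the medians of the other genes.

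**Figure D5:**
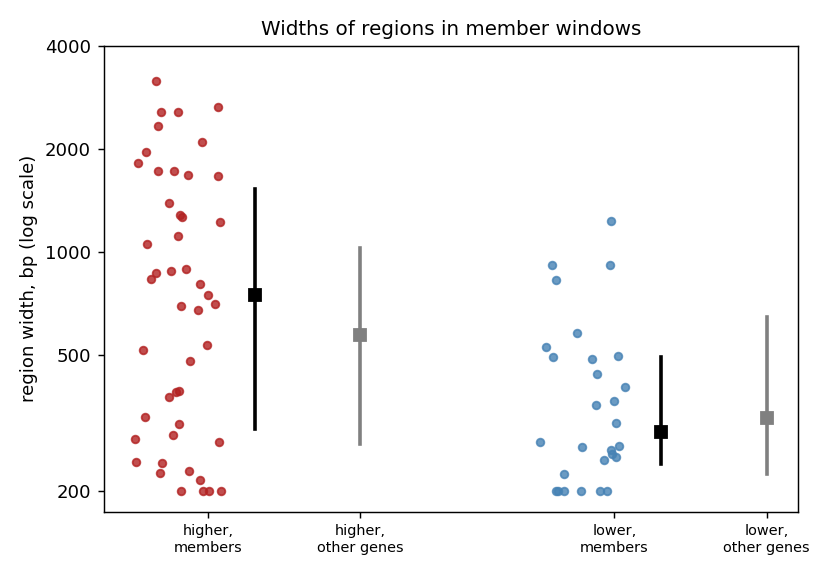
Width in bp (log scale) of each higher (red) and lower (blue) region in the members' windows. Black squares and lines are the members' medians and interquartile ranges, grey ones those of regions in windows of other protein-coding genes; higher regions of members reach 3164 bp and lower ones 1230 bp.

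The 29 members without a region lay between 22.1 and 2118 kb from the nearest one, with a median of 74.1 kb, and the nearest was higher for 18 and lower for 11. Of all regions in both lists 68.1% were higher, and these distances were not computed for other genes. At the 20 kb limit, the outermost region counted was a lower one 19.4 kb beyond Runx1, and the first ones left out were a higher one 21.7 kb beyond Foxp1 and a lower one 22.1 kb beyond Tbx2. Sox17, Gata3, Pbx3, Rxra and Sox9 had their nearest region 25.7, 30.0, 30.8, 33.6 and 37.0 kb away. Foxa2, by contrast, was 334 kb from the nearest region, Rorb 320 kb and Gata6 307 kb. The lists do not say which parts of the genome the authors tested, so absence from them does not mean that the mark stayed the same.

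The other genes of these families were counted in the same way, as a list of 120 relatives. Of these, 52 held a region (43.3%, 95% Wilson interval 34.8 to 52.3%), against 36.8% after weighting for their own lengths, and their 100 regions were 66 higher and 34 lower. Sox5 alone held 15 of the higher ones. Without it, 85 regions remained, 51 higher and 34 lower, against 48.5 and 23.5 for other genes of the same lengths. Mecom held 5 higher regions and 1 lower region, and Nr3c2 held 3 and 2. The 11 T-box relatives held 11 regions, against 5.89 for other genes of their lengths, and the most, 1 higher and 2 lower, were in Tbx18. The median span of these relatives was 21.0 kb, and that of the T-box members was 9.51 kb. Gata1, Gata5 and the 3 PAX relatives held none.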

How the data were processed

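The authors deposited 2 lists of regions, whose names give the direction of change in the knockout and the build, mm10. The names spell the knockout OgtiTKO, taken here to mean Ogt iKO. The lists hold positions alone, with no score, level or p-value. The submitters' processing notes name Bismark, MACS2 and mm10; the differential test, its threshold, the use of inputs and spike-ins and the pooling of replicates are not given in the sources used here. Gene spans are from RefSeq (GRCm38.p6, whose chromosomes are those of mm10), 21774 protein-coding of 49595 placed genes. Length weighting took the mean over other protein-coding genes in classes divided at 5, 10, 20, 50, 100, 200 and 500 kb, weighted by the members' numbers; a region counted once for each gene whose window held it. Members and lists were chosen with earlier results of these data known, so no tests were made. Single regions were located for the 10 members with most regions, for members with lower regions only and for the widest of each family; widths of other members' regions, outside this rule, were added after the values were seen. Relatives were to be named if they held 5 or more regions or the most in a family; not all of these are reported here. A further rule, midpoints within 1 kb of a gene end, found none. The RefSeq promoter table gave 70 promoters for 42 members. Counting was tested on simulated data. Python 3.11.15, numpy 2.4.6, pandas 2.3.3, scipy 1.17.1 and matplotlib 3.10.9 were used.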

Additional observations from a re-analysis of the deposited data

How the results depend on the processing

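Of 105 recomputed values for 21 results, 95 stayed within the main value's 95% interval, or, for differences from the length-weighted value, within 0.5 of its width, and 10 moved. This is a weak check, because most settings reuse the same regions and some intervals are wide. The interval was 0 to 79.3% for SOX and for TBX, and the sign changes given below counted as staying within. Keeping only the wider regions, of 453 bp (the median of both lists) or more, gave 76.9% higher, and 32.2%, 25.4% and 13.6% of members with any, a higher and a lower region (length-weighted 36.8, 31.0 and 11.2%), at 0.661 regions per member (0.630); fewer regions are counted there by construction. Counting base pairs gave 80.0% higher, from 46512 bp of higher and 11622 bp of lower regions. In windows of other protein-coding genes the totals were 4989029 and 1485373 bp. Higher regions were the wider ones there too, with medians of 571 and 328 bp. The 76.9% and 80.0% are therefore not shown to be particular to the members. A 50 kb flank gave 66.1% of members with a region, 54.2% with a higher one and 1.69 regions per member (length-weighted 66.4%, 54.4% and 1.62), since windows are larger. With no flank, 21.7% of relatives held a region, against 21.0% after length weighting.

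The difference between members and length-weighted genes in the share with a region changed sign, from -3.35 to 1.60 percentage points, when regions inside another protein-coding gene were left out. In regions per member it went from 0.0277 to -0.0184 without Foxp1, 1 of 3 members tied at 6 regions and left out by alphabetical order. No paired analysis was possible because the lists hold no values per sample; leaving out a replicate was not possible for the same reason. SOX and TBX gave no share of higher regions without a flank or without Sox7 or Eomes, and GATA gave none in any setting.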

Other observations

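The 90 relatives under 50 kb held 17 higher and 21 lower regions, so that 44.7% were higher (95% Wilson interval 30.1 to 60.3%). For protein-coding genes under 50 kb that are not members, 62.9% of region-gene pairs were higher, and 64.5% with each region counted once. The 62.9% and the values by length class below are for all non-members and so include the relatives. Leaving out regions inside another protein-coding gene gave 14 higher and 17 lower. By length, relatives under 5 kb held 3 higher and 9 lower regions, against 58.1% higher for other genes of that length, and those of 20 to 50 kb held 12 higher and 9 lower, against 66.0%. Among the members under 50 kb, Sox7, Eomes and Pax6 held 1 lower region each and Nfic 1 higher region. These values were picked out after the counts were seen, and no test was run.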
